A study of Mus musculus with 12 samples.

Results

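The 5-FU response of bone marrow cells from mice labelled Trim47-/- was compared with the 5-FU response of the same kind of cells from wild-type mice, gene by gene. The quantity is a difference of differences: the log2 change with 5-FU in the libraries labelled Trim47-/- minus the log2 change with 5-FU in wild type, called the interaction here. All 12 libraries entered it, and all genes were members. Of 28999 genes in the count table, 16319 passed edgeR's default filter on low counts and were tested. A positive interaction means that a gene moved further up, or less far down, with 5-FU in the libraries labelled Trim47-/- than in wild type. A negative interaction means the reverse.

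Each library held poly-A RNA of mouse bone marrow cells, given in the labels as long-term hematopoietic stem cells and abbreviated LT-HSCs. The groups were untreated wild type, untreated Trim47-/-, wild type with 10 days of 5-FU and Trim47-/- with 10 days of 5-FU, with 3 libraries each. The genotype field of the mutant samples reads Trim47 mutant. The labels give no strain, age, dose, sorting markers or position of the deleted part, and whether each library came from its own animal is not stated. All p-values thus rest on variation among libraries that may be only technical.

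LT-HSCs sit at the top of blood formation, divide rarely and can rebuild all blood lineages. 5-FU is a pyrimidine analogue that kills dividing cells, and the loss of progenitors drives the surviving stem cells into cycle before they return to rest. TRIM47 belongs to the tripartite-motif family, whose RING-bearing members attach ubiquitin to other proteins.

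Depth was 14828152 to 14885673 counts per library in untreated wild type and 20661120 to 20703198 in untreated Trim47-/-. After 5-FU it was 15111811 to 15151589 in wild type and 13919649 to 13953510 in Trim47-/-. Depth therefore differed with the groups and cannot be told apart from them. Within a group, 11.7% to 13% of genes with at least 30 counts over the 3 libraries lay beyond counting noise at a chi-square p of 0.01. The labelled cell type was checked against its gate markers, and levels are given in CPM, the count scaled to a common library size after TMM normalization. Kit and Procr were present in all groups, at group means of 302 to 495 and 20.3 to 44.0 CPM. Slamf1, which encodes CD150 and marks LT-HSCs, stood at only 1.89 ± 0.46 CPM in untreated wild type (SD, n = 3), against 16.3 ± 0.372 CPM after 5-FU. Flt3, Cd34 and Cd48, which are low or absent in strictly gated LT-HSCs, were all present in untreated wild type, at 711 ± 8.54, 693 ± 24.9 and 56.8 ± 3.09 CPM. Mpo, which encodes the granule enzyme myeloperoxidase, stood at 1899 ± 72.3 CPM there. The cells are called LT-HSCs below only as a label. In bulk RNA, fewer cells of a type and less RNA per cell cannot be told apart, and this holds for every result below.

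Trim47 itself was present in every library and had a negative interaction. Its level was 24.6, 23.8 and 24.7 CPM in untreated wild type and 23.7, 18.9 and 16.6 CPM in untreated libraries labelled Trim47-/-. After 5-FU it was 38.1, 33.3 and 34.7 CPM in wild type and 10.1, 12.2 and 11.6 CPM in libraries labelled Trim47-/-. Untreated, the highest library labelled Trim47-/- lay just under the lowest wild-type library, and after 5-FU the genotypes were well apart. Trim47 rose by log2 0.54 in wild type and fell by 0.80 on the log2 scale in libraries labelled Trim47-/-, an interaction of -1.34 (SE 0.167, adjusted p = 3.87e-05, edgeR's quasi-likelihood test with Benjamini-Hochberg adjustment). Counts are per gene and the deleted part is not given, so this level does not check the genotype. The overlapping neighbour Trim65, which shares 8.23% of Trim47's exonic bases on the same strand, had an interaction of -0.88 (SE 0.137, adjusted p = 0.000213). Of 15 tested genes at and around the locus on chromosome 11, Mrpl38, H3f3b, Galk1 and Sap30bp had positive interactions of 0.27 to 0.56, and 8 genes, Trim47 and Trim65 included, had negative ones. Genes named in this way as the few members of a list with 1 sign were chosen after their values were seen.

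The interaction passed in 8957 genes, 54.9% of those tested, at an adjusted p under 0.05 in edgeR's test. It was positive in 4313 genes (26.4%) and negative in 4644 (28.5%), and the median over all genes tested was -0.03. These shares and this median are the background against which each gene group below is read. An interaction of at least 2-fold was called in 2774 genes (17.0%), 1192 of them positive and 1582 negative. One of at least 4-fold was called in 453 genes with a positive and 286 with a negative interaction. A test against a change of 1.5-fold called fewer genes, 2913. Over all genes tested, the median absolute interaction was log2 0.43. The same median was 0.26 for the wild-type response and 0.35 for the response in libraries labelled Trim47-/-.

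The 5-FU response was called in 8260 genes in wild type (50.6%) and in 9868 genes in libraries labelled Trim47-/- (60.5%). These responses share no libraries. Of 5791 genes called in both, 3228 (55.7%) moved in the same direction. Across all genes tested, the log2 responses had a Pearson r of 0.263, and 0.218 over the 9990 genes averaging 10 CPM or more; this is a description across genes, which are not independent replicates. Read the other way, the genotype difference was called in 5392 genes in untreated mice (33%) and in 8933 genes after 5-FU (54.7%). Of the genes with an interaction, 3591 had a genotype difference called in both states, and in 3388 of these its sign turned. In libraries labelled Trim47-/-, 1582 of them were lower when untreated and higher after 5-FU, and 1806 the reverse. Genes called for the interaction are selected to differ between states, so this count describes them and tests nothing further.

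**Figure D1:**
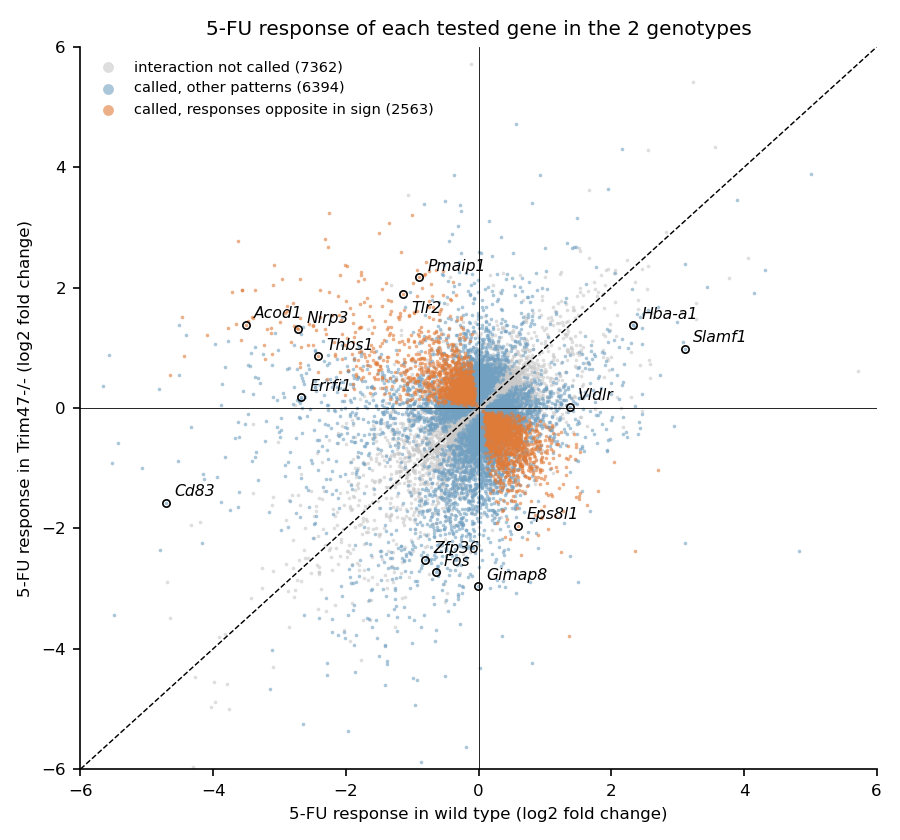
Log2 5-FU response of each of the 16319 tested genes in wild type (x axis) against that in libraries labelled Trim47-/- (y axis), coloured by whether the interaction was called, with some genes of the text circled; 79 genes with a response beyond log2 6 lie outside the axes. Genes on the dashed line responded alike, and the 2563 orange genes changed in opposite directions.

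The called genes were sorted by their responses in each genotype. Responses of opposite sign were found in 2563 genes (28.6% of the called genes), 1321 with a positive and 1242 with a negative interaction. A response called in libraries labelled Trim47-/- and not in wild type was the most frequent pattern, with 2916 genes (32.6%). The reverse, a response called in wild type and not in libraries labelled Trim47-/-, was found in 1711 genes (19.1%). Responses in the same direction were larger in libraries labelled Trim47-/- in 1026 genes (11.5%) and smaller in 523 (5.84%). In 218 genes (2.43%) neither response passed alone. A response not called in a genotype may still have been present there below the threshold. The patterns therefore describe calls, and only the interaction tests the difference. The opposite pattern held 1063 of the 2774 interactions of at least 2-fold.

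**Figure D2:**
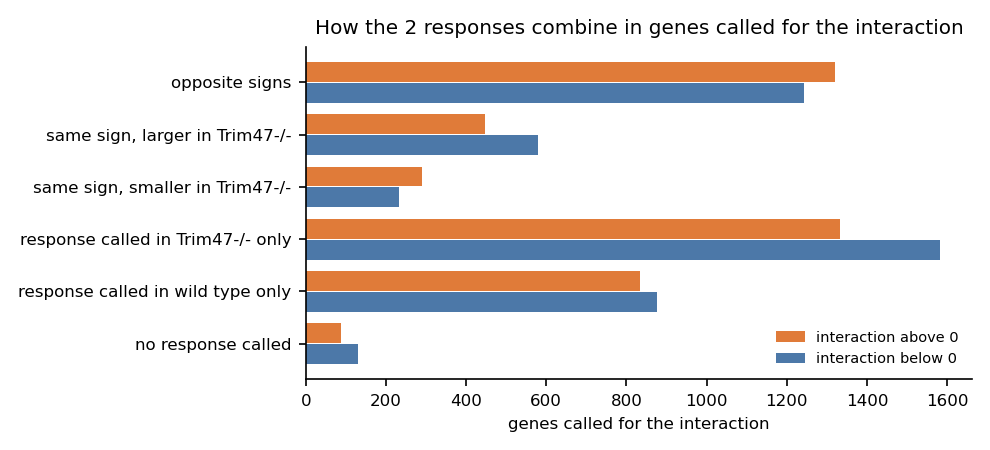
Number of genes called for the interaction (x axis) in each pattern of responses (y axis), split by a positive (orange) or negative (blue) interaction. Responses called in libraries labelled Trim47-/- alone and responses of opposite sign made up the longest bars.

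Acod1 had the largest positive interaction and Gimap8 the most negative one among the 5626 called genes that met the rule for naming (a mean of at least 10 CPM, libraries within 1.5-fold of each other in every group, no unnamed gene models and no antigen receptor segments). The region just before the start of transcription is shown for genes at both ends of that ranking, because it is the sequence nearest to the RNA change measured. Each stretch is 250 bases before the RefSeq start on build GRCm38.p6, plus strand, from RefSeq, with matches to the motifs listed below in capitals. Acod1 lies at chr14:103046762-103047011, Gimap8 at chr6:48646984-48647233, Eps8l1 at chr7:4460447-4460696 and Zc3h6 at chr2:128967152-128967401.
Acod1: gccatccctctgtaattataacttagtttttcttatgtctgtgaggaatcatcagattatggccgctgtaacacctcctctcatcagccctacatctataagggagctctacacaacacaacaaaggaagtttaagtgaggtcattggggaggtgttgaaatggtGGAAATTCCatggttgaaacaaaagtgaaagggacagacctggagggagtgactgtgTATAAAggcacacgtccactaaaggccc
Gimap8: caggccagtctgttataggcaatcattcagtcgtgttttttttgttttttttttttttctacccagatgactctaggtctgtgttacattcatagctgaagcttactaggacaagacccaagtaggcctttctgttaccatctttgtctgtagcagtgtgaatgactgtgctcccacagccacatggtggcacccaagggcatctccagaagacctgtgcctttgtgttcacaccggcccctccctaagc
Eps8l1: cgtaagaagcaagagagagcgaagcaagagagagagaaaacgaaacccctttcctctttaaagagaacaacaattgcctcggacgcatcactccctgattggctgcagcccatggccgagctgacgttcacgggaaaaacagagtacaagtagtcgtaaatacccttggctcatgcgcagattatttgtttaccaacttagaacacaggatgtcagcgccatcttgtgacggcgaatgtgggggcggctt
Zc3h6: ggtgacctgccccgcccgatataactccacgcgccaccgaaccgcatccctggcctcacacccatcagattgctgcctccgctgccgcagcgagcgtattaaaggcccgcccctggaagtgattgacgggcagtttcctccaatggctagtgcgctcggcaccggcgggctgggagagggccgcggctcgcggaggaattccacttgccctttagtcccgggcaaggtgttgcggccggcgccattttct
The motifs were a kappaB site (GGACTTTCC, GGAATTTCC or GGGATTTCC), a TATA box (TATAAA), a cAMP response element (TGACGTCA), an AP-1 site (TGACTCA), a serum response core (CCATATTAG) and an E2F site (TTTCGCGC), each on both strands. The Acod1 stretch held a kappaB site and a TATA box, and those of Gimap8, Eps8l1 and Zc3h6 held no match. Among 32851 stretches of this length in the RefSeq table, 0.846% held a kappaB site, 12.4% a TATA box, 1.55% a cAMP response element, 4.46% an AP-1 site, 0.0974% a serum response core and 0.256% an E2F site. A match is a description of these letters and not a binding site. The RefSeq start of Nlrp3 lay 1118 bases inside the gene as the count table gives it, so its stretch is not shown. Only 10574 of the 16319 tested genes (64.8%) had an entry in the table. Motif shares and base composition were computed for genes with positive and with negative interactions, but with so many genes missing that comparison is void and its shares are not given.

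Genes of opposite response included regulators of inflammation. Acod1, the enzyme that makes the antimicrobial metabolite itaconate in activated macrophages, stood at 29.8, 28.5 and 27.4 CPM in untreated wild type and 2.97, 2.47 and 2.09 CPM after 5-FU. Its levels in libraries labelled Trim47-/- were 8.14, 6.68 and 7.18 CPM untreated and 20.9, 17.9 and 18.8 CPM after 5-FU. Acod1 thus fell in wild type and rose in libraries labelled Trim47-/-, with no overlap between any groups, and its interaction was 4.90 (SE 0.161, adjusted p = 8.02e-10). Nlrp3, the sensor of the NLRP3 inflammasome, stood at 151, 149 and 141 CPM in untreated wild type and 21.9, 24.5 and 20.3 CPM after 5-FU. The libraries labelled Trim47-/- held it at 52.5, 48.6 and 45.7 CPM untreated and 130, 103 and 131 CPM after 5-FU. Its interaction was 4.03 (SE 0.136, adjusted p = 1.03e-09), again with no overlap between groups. Thbs1, the secreted matrix protein thrombospondin 1, fell from 91.0 ± 2.87 to 17.1 ± 0.933 CPM in wild type and rose from 32.8 ± 0.461 to 59.5 ± 2.39 CPM in libraries labelled Trim47-/- (SD, n = 3 each; interaction 3.27).

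Eps8l1, Zc3h6 and Gprc5b went the other way. Eps8l1, a relative of the actin regulator Eps8, stood at 15.7, 15.7 and 17.6 CPM in untreated wild type and 25.8, 25.8 and 22.4 CPM after 5-FU. In libraries labelled Trim47-/- it stood at 39.3, 39.4 and 41.9 CPM untreated and 9.61, 11 and 10.5 CPM after 5-FU. Eps8l1 was thus the higher of the genotypes' levels in untreated Trim47-/- and the lower after 5-FU, with an interaction of -2.55 (SE 0.108, adjusted p = 6.26e-09). Zc3h6, a zinc finger gene, rose from 9.64 ± 0.826 to 22.4 ± 3.98 CPM in wild type and fell from 17.3 ± 0.408 to 6.88 ± 0.299 CPM in libraries labelled Trim47-/- (interaction -2.55). Gprc5b, an orphan receptor of the G protein-coupled family, rose from 11.9 ± 1.01 to 24.5 ± 1.79 CPM and fell from 25.3 ± 1.19 to 9.29 ± 0.786 CPM in the same order (interaction -2.49).

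Responses called in libraries labelled Trim47-/- and not in wild type were led by Gimap8, a GTPase of immunity-associated proteins. It stood at 17.7, 18.1 and 17.6 CPM in untreated wild type and 16.7, 17.3 and 19.0 CPM after 5-FU, groups that overlapped. Its levels in libraries labelled Trim47-/- were 29.2, 29.3 and 29.3 CPM untreated and 3.32, 3.77 and 4.21 CPM after 5-FU, an interaction of -2.95 (SE 0.108, adjusted p = 1.84e-09). Clic5 and Six5, a chloride channel family member and a homeobox gene, followed with interactions of -2.14 and -1.97. On the positive side stood Ccr2, the chemokine receptor that guides monocytes, with an interaction of 2.14. It rose from 13.4 ± 1.05 to 56.3 ± 6.52 CPM in libraries labelled Trim47-/-, while wild type stood at 25.4 ± 0.598 and 24.2 ± 4.89 CPM. Robo3, a guidance receptor of the Roundabout family, and Oaf had interactions of 2.14 and 1.94.

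Responses called in wild type and not in libraries labelled Trim47-/- included falls that the libraries labelled Trim47-/- did not show. Errfi1, a feedback inhibitor of the EGF receptor, fell from 48.0 ± 1.9 to 7.52 ± 0.449 CPM in wild type and stood at 14.0 ± 1.75 and 16.0 ± 0.927 CPM in libraries labelled Trim47-/- (interaction 2.86, SE 0.126). Ptafr, the receptor of platelet-activating factor, fell from 49.1 ± 3.21 to 7.61 ± 0.179 CPM and stood at 23.9 ± 1.38 and 25.4 ± 1.25 CPM in the same order (2.78, SE 0.0946). Ifi213, an interferon-inducible gene, had an interaction of 2.11. In the other direction, Tek, the receptor of angiopoietins, rose from 10.6 ± 0.733 to 29.1 ± 2.36 CPM in wild type, against 12.7 ± 0.39 and 13.5 ± 1.42 CPM in libraries labelled Trim47-/- (-1.37, SE 0.126). Slc16a11 and Casp12 had interactions of -1.76 and -1.38.

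Where both genotypes moved in the same direction, Cd83 differed most. This activation marker of dendritic and B cells stood at 212, 209 and 208 CPM in untreated wild type and 8.08, 7.91 and 7.91 CPM after 5-FU, and in libraries labelled Trim47-/- at 90.6, 89.2 and 87.5 CPM and then 29.5, 31.3 and 29.0 CPM. It fell in both genotypes, less far in libraries labelled Trim47-/-, and the order of the genotypes turned with 5-FU (interaction 3.14, SE 0.0496, adjusted p = 2.30e-12). Arl5c and Dusp8 showed the same pattern at 2.67 and 2.11. Slc18a2, a vesicular monoamine transporter, rose less in libraries labelled Trim47-/- (55.8 ± 1.66 to 65.1 ± 0.648 CPM) than in wild type (59.4 ± 2.36 to 152 ± 3.21 CPM), an interaction of -1.13, and Sdsl and the globin gene Hbb-bt did likewise at -1.04 and -1.03. Larger rises in libraries labelled Trim47-/- were led by Slc35e4, a solute carrier gene, which went from 14.6 ± 0.719 to 67.9 ± 2.43 CPM there and from 16.0 ± 0.766 to 21.4 ± 1.79 CPM in wild type (1.8), by Ms4a6c (1.66) and by Fam214b (1.65). Larger falls were led by Sgsm1, by the stress cytokine gene Gdf15 and by the semaphorin gene Sema3d, at -2.14, -2.14 and -2.11. Of the 218 genes with an interaction and no response called in either genotype, 52 had an interaction of at least 2-fold. The genes of this pattern that met the rule for naming had smaller values: Arpp19, Prdx1 and Arid5b at 0.63, 0.60 and 0.58, and Mthfsl, Usp40 and Agfg2 at -0.61, -0.59 and -0.54. The calls for Prdx1, Arid5b and Usp40 were lost without the filter on low counts, at adjusted p of 0.0548, 0.0853 and 0.0656.

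**Figure D3:**
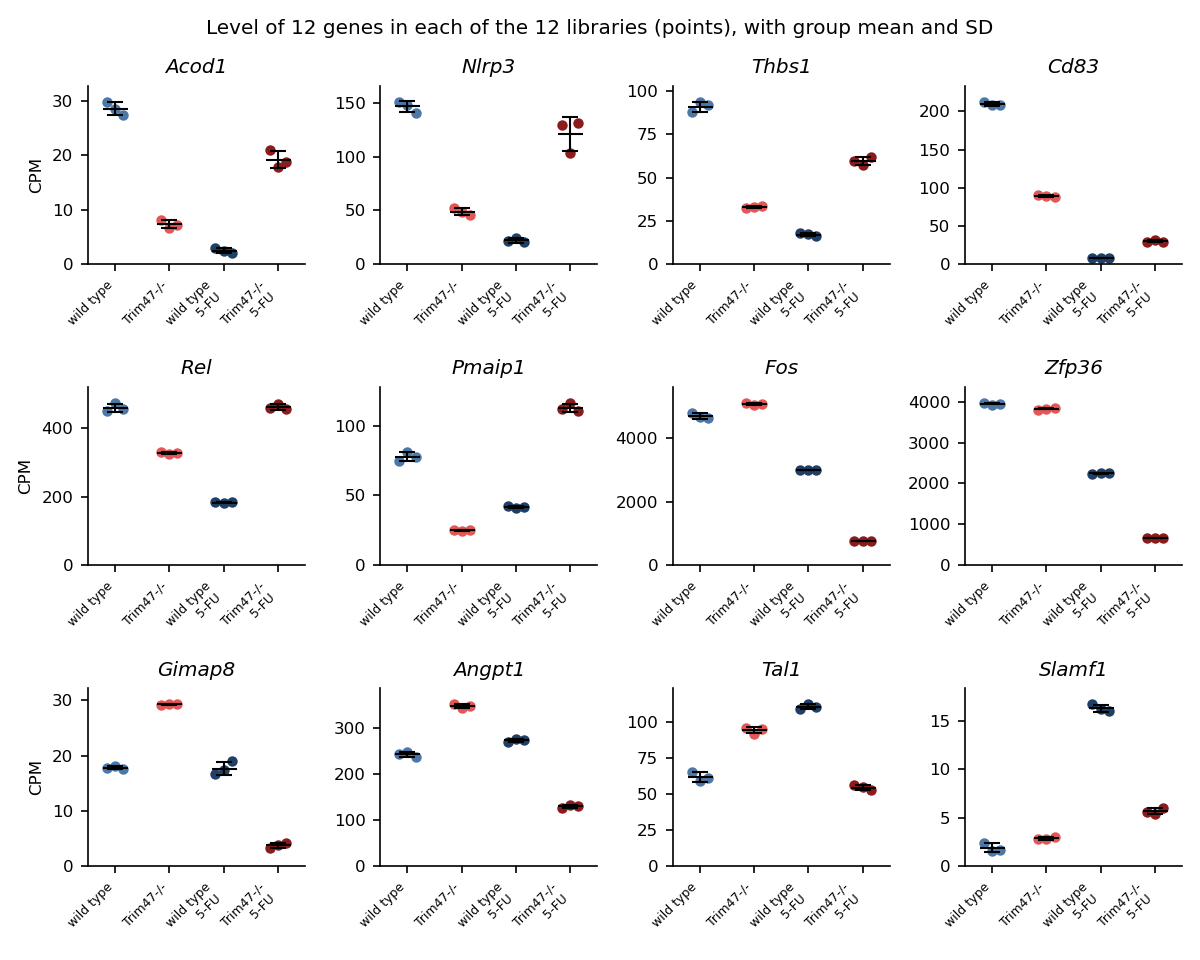
CPM (y axis, from 0) of 12 genes in each of the 12 libraries (points), grouped by genotype and treatment (x axis), with the group mean and SD as bars. Acod1, Nlrp3, Thbs1, Rel and Pmaip1 fell with 5-FU in wild type and rose in libraries labelled Trim47-/-, while Angpt1 and Tal1 did the reverse.

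Genes of innate signalling leaned to positive interactions. Of 21 tested genes of inflammasomes and activated myeloid cells, 14 (66.7%) had positive interactions and Naip5 and Il18 had negative ones, at -0.39 and -1.11. The list's median response was -0.61 in wild type and 0.86 in libraries labelled Trim47-/-, and its median interaction was 1.09. Besides Acod1, Nlrp3 and Thbs1, Casp4, the inflammatory caspase that senses lipopolysaccharide in the cytosol, had an interaction of 1.17. Of 24 NF-kB subunits, inhibitors and upstream kinase components, 17 (70.8%) had positive interactions, with Ikbke, Ikbkg and Map3k14 negative at -0.39, -0.99 and -0.69. Their median response was -0.90 in wild type and 0.06 in libraries labelled Trim47-/-, a median interaction of 0.64.

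Among the NF-kB subunits, Rel, which encodes c-Rel, stood at 451, 474 and 457 CPM in untreated wild type and 184, 181 and 183 CPM after 5-FU. The libraries labelled Trim47-/- held it at 332, 326 and 327 CPM untreated and 459, 472 and 457 CPM after 5-FU. Rel levels after 5-FU in libraries labelled Trim47-/- thus lay in the range of untreated wild type (interaction 1.83, SE 0.0316, adjusted p = 4.81e-12). Relb and Nfkb2, partners in the alternative NF-kB pathway, had interactions of 2.11 and 1.66, each a fall in wild type and a rise in libraries labelled Trim47-/-. Nfkbia, the inhibitor IkB-alpha, fell in both genotypes and less far in libraries labelled Trim47-/- (0.73). Of 29 genes that NF-kB is known to induce, 18 (62.1%) had positive and 6 negative interactions (median 0.60). Icam1, an adhesion molecule, and Birc3, an inhibitor of apoptosis, had interactions of 1.84 and 1.29, and the activation marker Cd69 one of -1.02.

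Pattern sensors were divided. Of 25 Toll-like and RIG-I-like receptors and their adaptors, 9 (36.0%) had positive and 6 negative interactions, with a median close to 0. Tlr2, a receptor of bacterial lipopeptides, stood at 43.9, 41.3 and 42.7 CPM in untreated wild type and 18.6, 19.2 and 20.3 CPM after 5-FU. In libraries labelled Trim47-/- it stood at 21.2, 20.9 and 21.3 CPM untreated and 79.7, 80.6 and 75.3 CPM after 5-FU, an interaction of 3.03 (SE 0.0654, adjusted p = 2.47e-11). Unc93b1, which carries nucleic acid-sensing Toll-like receptors to endosomes, and the adaptor Traf6 had interactions of 0.62 and 0.61. Ddx58, which encodes the RNA sensor RIG-I, had one of -0.70. Of 49 interferon response genes, 24 (49.0%) had positive and 12 (24.5%) negative interactions, with a median of 0.24. Ifi27l2a, Irf7, Bst2 and Gbp3 each fell in wild type and rose in libraries labelled Trim47-/-, with interactions of 2.86, 1.55, 1.41 and 1.02.

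Monocyte genes moved with these innate groups. Of 19 tested monocyte and macrophage genes, 15 (78.9%) had positive interactions and Apoe had a negative one of -1.36, with a median of 0.85. F13a1, the factor XIII A chain, stood at 165, 165 and 156 CPM in untreated wild type and 124, 119 and 120 CPM after 5-FU, and in libraries labelled Trim47-/- at 87.6, 85.5 and 83.0 CPM and then 288, 299 and 305 CPM (interaction 2.21). Mpeg1, a pore-forming protein of macrophages, and Csf1r, the receptor of macrophage growth factor, had interactions of 2.12 and 1.9. Of the exonic bases of Ms4a6c, 53.1% overlap a transcript on the opposite strand, so its reads may not be told apart from it. The summed CPM of the 19 genes was 2066 to 2121 in untreated wild type and 1408 to 1459 after 5-FU, and 1584 to 1727 and then 1909 to 1930 in libraries labelled Trim47-/-. The macrophage complement genes were near the floor: C1qb and C1qc did not pass the filter, and C1qa averaged 0.492 CPM over all libraries. The part of monocyte RNA in the innate groups above was not tested.

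Immediate early genes, which cells switch on within minutes of stimulation or handling, were split in sign, with negative interactions in Fos, Jun, Junb and Egr1. Of 10 AP-1 subunits, 6 had negative interactions and Fosl1 and Atf3 positive ones, at 2.21 and 1.03, with a median of -0.48. Fos stood at 4794, 4671 and 4628 CPM in untreated wild type and 2989, 3000 and 3006 CPM after 5-FU. Its levels in libraries labelled Trim47-/- were 5098, 5045 and 5075 CPM untreated and 771, 773 and 759 CPM after 5-FU. Fos thus fell in both genotypes and further in libraries labelled Trim47-/- (interaction -2.08, SE 0.0189, adjusted p = 1.9e-14). Jun and Junb, its dimer partners, did the same at -1.19 and -0.54. Fosl1 fell in wild type and rose in libraries labelled Trim47-/-, but 57.2% of its exonic bases overlap Ccdc85b on the opposite strand.

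The other early factors showed the same division. Of 11 Egr, Nr4a and Ier factors, 6 had negative interactions and Egr3, Nr4a3 and Nfil3 positive ones, at 0.93, 1.63 and 1.54, with a median of -0.53. Egr1, a growth-induced factor that also restrains stem cell cycling, fell from 2795 ± 23.6 to 1402 ± 9.27 CPM in wild type and from 3404 ± 16.6 to 701 ± 5.53 CPM in libraries labelled Trim47-/- (interaction -1.28). Ier3 and Ier2 had interactions of -1.55 and -0.55. Of 13 Kruppel-like factors, 6 had positive interactions and Klf1, Klf2, Klf6 and Klf12 negative ones of -1.06, -0.78, -0.71 and -1.73 (median 0.12). Klf13 and Klf10 were positive at 1.14 and 0.90.

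Inhibitors that act back on MAP kinase signalling were not uniform either. Of 16 tested, 9 (56.2%) had positive interactions, and Dusp1, Dusp2, Dusp6, Spry1 and Spry2 had negative ones of -1.75, -1.19, -0.51, -1.60 and -0.25, with a median over the list of 0.34. Dusp16, a phosphatase of JNK and p38 kinases, had a positive interaction of 2.23. Of 12 regulators of mRNA decay and translation, 7 had negative interactions and Btg3, Noct, Zc3h12a, Rc3h1 and Pdcd4 positive ones, at 0.73, 3.04, 1.16, 1.62 and 0.17 (median -0.19). Zfp36, which brings AU-rich mRNAs of cytokines and early genes to decay, stood at 3962, 3927 and 3954 CPM in untreated wild type and 2228, 2248 and 2263 CPM after 5-FU. The libraries labelled Trim47-/- held it at 3806, 3830 and 3833 CPM untreated and 667, 664 and 671 CPM after 5-FU (interaction -1.70, SE 0.0141, adjusted p = 9.72e-15). Its relative Zfp36l2 rose in wild type and fell in libraries labelled Trim47-/- (-1.05), and Btg2, an antiproliferative gene, had an interaction of -1.14.

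Stem cell genes leaned the other way. Of 40 tested genes of LT-HSC identity, 30 (75%) had negative interactions, 20 of them at least 2-fold. Ly6e, Tgm2, Itgb3, Ifitm1 and Ifitm3 had positive ones, at 0.57, 0.70, 0.63, 0.11 and 0.84. The list's median response was 0.16 in wild type and -0.64 in libraries labelled Trim47-/-, with a median interaction of -1.04. Angpt1, a ligand of Tek that stem cells themselves make, stood at 244, 249 and 238 CPM in untreated wild type and 270, 276 and 275 CPM after 5-FU. In libraries labelled Trim47-/- it stood at 353, 346 and 349 CPM untreated and 127, 133 and 132 CPM after 5-FU (interaction -1.59, SE 0.0345, adjusted p = 2.47e-11). Angpt1 was therefore higher in libraries labelled Trim47-/- before 5-FU and lower after it, with no overlap. Tal1, a factor needed to specify blood, stood at 65.5, 59.2 and 61.0 CPM in untreated wild type and 109, 112 and 110 CPM after 5-FU, against 96.0, 91.8 and 94.9 CPM and then 56.0, 54.5 and 52.9 CPM in libraries labelled Trim47-/- (-1.63, SE 0.0565).

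Of the gate markers, Slamf1, Kit and Procr had negative interactions. Slamf1 stood at 2.42, 1.59 and 1.66 CPM in untreated wild type and 16.7, 16.3 and 16.0 CPM after 5-FU. Its levels in libraries labelled Trim47-/- were 2.79, 2.80 and 2.98 CPM untreated and 5.63, 5.36 and 6.02 CPM after 5-FU. Slamf1 rose in both genotypes and less in libraries labelled Trim47-/- (interaction -2.12, SE 0.175, adjusted p = 1.36e-06). Kit and Procr fell in libraries labelled Trim47-/- and their wild-type responses of -0.02 each did not pass (interactions -0.69 and -0.94). Ly6a libraries of a group lay up to 1.97-fold apart, and its interaction of 0.46 did not pass (SE 0.416, adjusted p = 0.375). The interaction of Cd48, -0.15, did not pass either (SE 0.0613, adjusted p = 0.0512), but it did under several alternatives.

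GIMAP and Hox genes had no member with a positive interaction in edgeR's test; the count was also 0 in each list at an unadjusted p under 0.05 and with DESeq2. Of 8 GIMAP GTPases, 7 (87.5%) had negative interactions from -1.15 in Gimap6 to -2.95 in Gimap8 and a median of -1.62, and Gimap9, at -0.08, was not called. Gimap6 and Gimap5, which act in lymphocyte survival, had interactions of -1.15 and -1.62, and Gimap3, at group means of 0.627 to 3.15 CPM, one of -2.07. Of 18 Hox genes and cofactors, 15 (83.3%) had negative interactions with a median of -1.06, and 3, among them Hoxa4 and Hoxa7, were not called. Hoxa9, a driver of stem cell self-renewal, fell from 86.0 ± 4.84 to 39.6 ± 1.8 CPM in libraries labelled Trim47-/-, while wild type stood at 63.2 ± 1.72 and 67.2 ± 4.11 CPM (interaction -1.21). Hoxa5 and Hoxa3 rose in wild type and fell in libraries labelled Trim47-/- (-1.26 and -1.82), and their cofactor Meis1 had an interaction of -0.56.

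**Figure D4:**
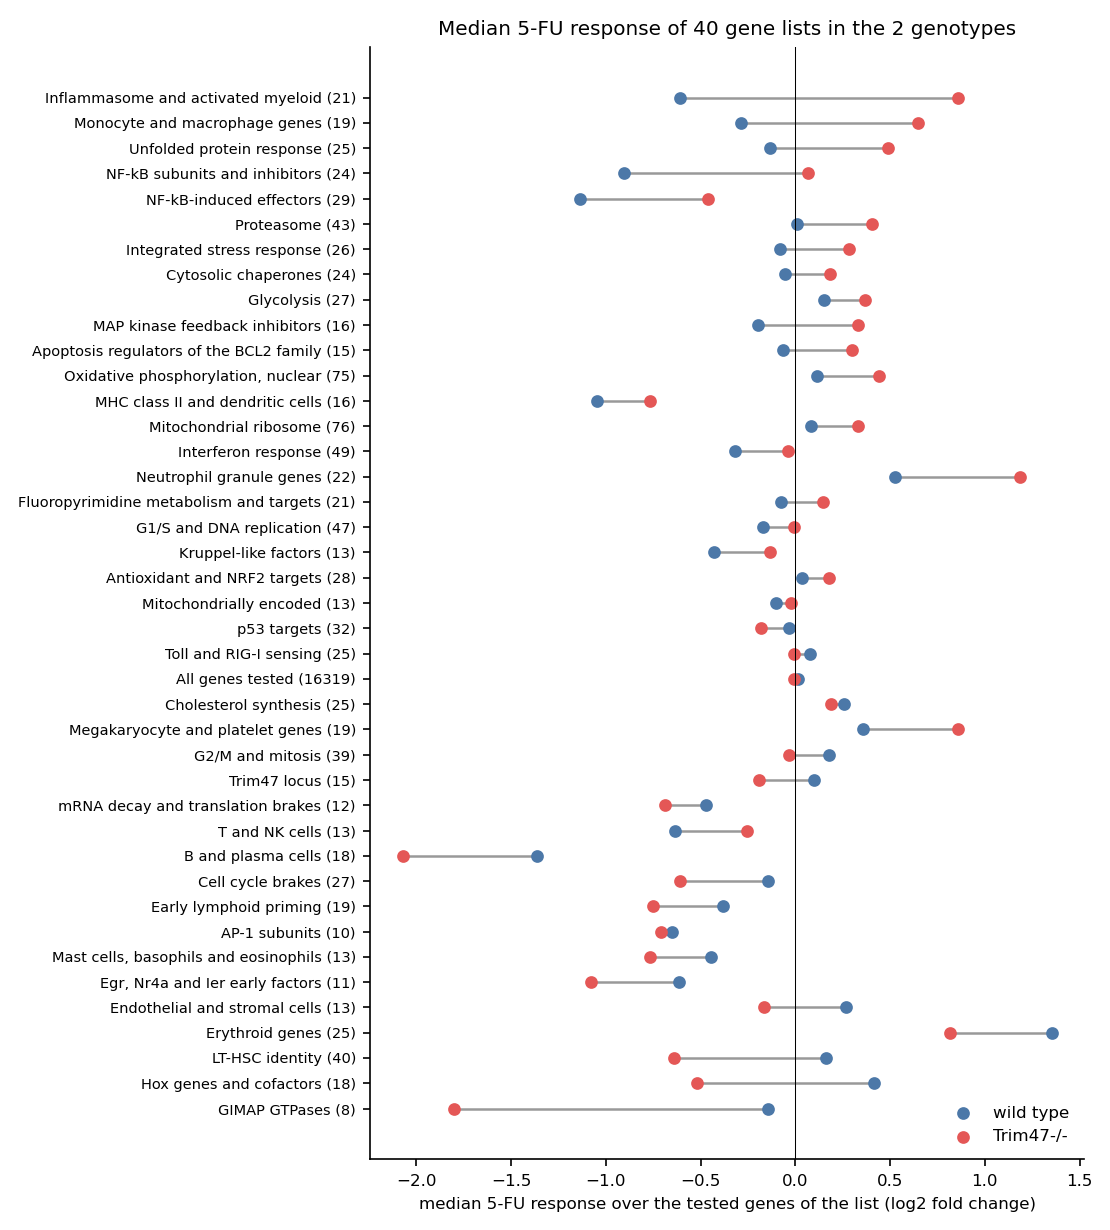
Median log2 5-FU response (x axis) over the tested genes of each of 40 gene lists and of all genes tested (y axis, number of genes in parentheses), in wild type (blue) and in libraries labelled Trim47-/- (red), ordered by the median interaction. Inflammasome genes lie at -0.61 in wild type and 0.86 in libraries labelled Trim47-/-, and LT-HSC identity genes at 0.16 and -0.64.

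Cell cycle genes had small interactions. Of 47 genes of the G1/S step and DNA replication, 23 (48.9%) had positive interactions and Cdc7, Rfc1 and Pole2 negative ones of -0.87, -0.13 and -0.35, with a median of 0.14. With total counts in place of TMM scaling, 14 were positive and 7 negative. Orc1, a subunit of the origin recognition complex, and the licensing factor Cdt1 fell in wild type and rose in libraries labelled Trim47-/-, with interactions of 1.26 and 0.62, as did the helicase subunit Mcm5 (0.40). Ccne1, cyclin E1, rose from 10.6 ± 0.785 to 24.5 ± 1.28 CPM in libraries labelled Trim47-/- (interaction 1.08). Of 39 G2/M and mitosis genes, 6 (15.4%) had positive and 17 (43.6%) negative interactions, with a median of -0.14. The mitotic kinase Plk1 and the spindle genes Hmmr and Nusap1 rose in wild type and fell in libraries labelled Trim47-/- (-0.82, -0.74 and -0.54), whereas the proliferation marker Mki67 did the reverse (0.53). Tested against a 1.5-fold change, 2 of the G1/S genes were positive, and 2 of the G2/M genes negative.

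Genes that restrain the cycle had mostly negative interactions. Of 27 such genes, 17 (63.0%) were negative and Foxo1, Tgfb1, Tgfbr1, Tgfbr2 and Ccng2 positive, at 0.53, 0.50, 1.42, 0.48 and 0.56, with a median of -0.39. Gfi1, a repressor that keeps stem cells quiescent, rose from 33.2 ± 1.15 to 59.7 ± 4.35 CPM in wild type and fell from 45.8 ± 1.15 to 31 ± 1.08 CPM in libraries labelled Trim47-/- (interaction -1.41). Targets of the tumour suppressor p53 showed no common direction: of 32 tested, 8 (25%) had positive and 12 (37.5%) negative interactions, with a median of 0.01. Pmaip1, which encodes the death inducer NOXA, stood at 74.6, 81.4 and 77.4 CPM in untreated wild type and 42.4, 41.1 and 41.5 CPM after 5-FU. The libraries labelled Trim47-/- held it at 25.2, 24.7 and 25 CPM untreated and 112, 116 and 111 CPM after 5-FU (interaction 3.08, SE 0.0538, adjusted p = 4.90e-12). Mdm2, the ubiquitin ligase of p53, also turned, at 1.43, while Plk2 fell in both genotypes (-1.28). Of 15 BCL2 family genes, 8 (53.3%) had positive interactions and none a negative one, a count of 0 in edgeR's test, at an unadjusted p under 0.05 and with DESeq2 alike, with a median of 0.29. Bcl2l11, Bbc3 and Mcl1 had values of 1.70, 0.67 and 0.21.

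Genes that metabolise fluoropyrimidines or are their targets were also examined. Of 21, 9 (42.9%) had positive interactions and 5 negative ones, among them Uck1, Tk2, Dctd and Mbd4 at -0.19, -0.75, -0.37 and -0.95, with a median of 0.19. Uck2 and Umps, which encode enzymes that make pyrimidine nucleotides, fell in wild type and rose in libraries labelled Trim47-/- (1.07 and 0.47). Dut, the enzyme that removes dUTP, did the same at 0.33.

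Genes of protein quality control had positive interactions of modest size. Of 25 unfolded protein response genes, 22 (88.0%) were positive and Dnajb9 was negative at -0.40, with a median of 0.66 and median responses of -0.14 in wild type and 0.49 in libraries labelled Trim47-/-. The chaperones Hyou1 and Calr fell in wild type and rose in libraries labelled Trim47-/- (0.85 and 0.73). Edem1, which directs misfolded glycoproteins to degradation, and the disulfide isomerase P4hb had interactions of 1.27 and 0.60. Of 43 proteasome genes, 37 (86.0%) were positive and Psmd5 and Psmd10 negative at -0.60 and -0.27, with a median of 0.44. The count of negative proteasome genes fell from 2 to 1 when any of several single libraries was left out. The core subunits Psmb3, Psma7, Psmb6 and Psmb4 had interactions of 0.70, 0.56, 0.52 and 0.50. Of 24 cytosolic chaperones, 16 (66.7%) were positive and Hspa4l and Dnajb1 negative at -0.42 and -0.60 (median 0.37), with Dnaja1, Hspa4 and Hspd1 at 0.82, 0.81 and 0.55. Of 26 integrated stress response genes, 16 (61.5%) were positive and Aldh18a1, Vldlr, Cebpb and Cebpg negative at -0.25, -1.35, -0.21 and -0.96 (median 0.42). The amino acid transporter Slc7a5 and the death-linked factor Ddit3 had interactions of 0.97 and 1.11. Tested against a 1.5-fold change, 8 unfolded protein response genes, 6 integrated stress response genes, 3 chaperones and 1 proteasome gene stayed positive.

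Nuclear genes of oxidative phosphorylation and of the mitochondrial ribosome leaned to positive interactions. Of 75 nuclear genes of oxidative phosphorylation, 46 (61.3%) had positive interactions and Ndufs1 and Sdha negative ones of -0.17 and -0.15, with a median of 0.28. Subunits of complex I, complex III and ATP synthase were among them: Atp5l at 1.31, Ndufb7 at 0.68, Uqcrq at 0.65 and Atp5b at 0.38. Of 76 mitochondrial ribosome genes, 37 (48.7%) were positive and Mrpl24, Mrpl49 and Mrps31 negative at -0.21, -0.34 and -0.34, with a median of 0.24. Mrpl12, Mrps28, Mrpl33 and Mrpl37 had interactions of 0.86, 0.70, 0.57 and 0.49. These interactions were small: tested against a 1.5-fold change, 1 gene of oxidative phosphorylation and 2 of the mitochondrial ribosome stayed positive. In the 13 genes encoded by mitochondrial DNA, the median was 0.01, and mt-Nd1, mt-Nd2, mt-Nd3 and mt-Nd5 were positive at 0.22, 0.20, 0.28 and 0.07. No gene of this list was negative in edgeR's test, at an unadjusted p under 0.05 or with DESeq2, each a count of 0. With total counts in place of TMM, 6 mitochondrially encoded genes were negative and the median was -0.08. Across all genes, interactions moved with gene length, as worked out from the deposited counts and FPKM. The median interaction was 0.14 over the 3264 shortest genes and -0.07 over the 3264 longest. Spearman's rho was -0.117 over the genes tested. The part of length in these groups was not tested.

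Other metabolic lists were mixed. Of 27 glycolysis genes, 13 (48.1%) had positive and 8 (29.6%) negative interactions (median 0.35). Pfkp, the platelet-type phosphofructokinase, the regulator Hif1a, the glucose transporter Slc2a1 and the hexokinase Hk2 were positive at 1.79, 1.33, 1.14 and 0.60. Of 28 antioxidant and NRF2 target genes, 11 (39.3%) were positive and Keap1, Nqo1, Prdx2, Prdx6 and Cat negative at -0.29, -1.04, -0.15, -0.17 and -0.66 (median 0.11). Nfe2l2, which encodes NRF2, was positive at 1.05, with Gsr and Txnrd1 at 0.49 and 0.43. Of 25 cholesterol synthesis genes, 5 were positive, among them Hmgcs1, Fdps and Cyp51 at 0.46, 0.60 and 0.58, and Lss, Sc5d, Dhcr7, Srebf2 and Stard4 negative at -0.83, -0.34, -0.50, -0.30 and -0.45 (median -0.07). Fdps shares 26.7% of its exonic bases with another gene model on the same strand.

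Among lineage lists, neutrophil granule genes leaned to positive interactions, and erythroid and early lymphoid genes to negative ones. Of 22 neutrophil granule genes, 13 (59.1%) were positive and Fcnb, Chil3 and Padi4 negative at -0.23, -0.70 and -0.43, with a median of 0.23. Their median response was positive in each genotype, 0.53 in wild type and 1.18 in libraries labelled Trim47-/-. Mpo stood at 1948, 1816 and 1933 CPM in untreated wild type and 1839, 1794 and 1861 CPM after 5-FU. In libraries labelled Trim47-/- it stood at 1748, 1747 and 1698 CPM untreated and 3017, 3371 and 3467 CPM after 5-FU, above all other groups (interaction 0.98, SE 0.0624, adjusted p = 1.73e-07). The granule proteases Ctsg and Prtn3 and the granule protein Ngp had interactions of 1.31, 0.65 and 0.40. The summed CPM of the 22 genes was 3675 to 3833 and 4729 to 4805 in wild type and 3675 to 3746 and 7257 to 7662 in libraries labelled Trim47-/-, untreated and after 5-FU. None of the 22 genes was under 1 CPM in every library of a group, and Azu1 was not matched in the table by symbol. The part of granulocyte RNA in the negative interactions of stem cell genes was not tested.

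Of 25 erythroid genes, 21 (84.0%) had negative interactions and Tfrc, the transferrin receptor, a positive one of 0.62, with a median of -0.78. Their median response was positive in each genotype, 1.35 in wild type and 0.81 in libraries labelled Trim47-/-. Hba-a1, an alpha globin gene with a near-identical copy, stood at 33.3, 33.5 and 32 CPM in untreated wild type and 164, 172 and 163 CPM after 5-FU, and in libraries labelled Trim47-/- at 57.2, 56.9 and 59.8 CPM and then 150, 154 and 149 CPM (interaction -0.95). Summed erythroid CPM was 715 to 731 and then 1296 to 1330 in wild type, and 859 to 876 and then 1128 to 1136 in libraries labelled Trim47-/-. Of 19 early lymphoid genes, 11 (57.9%) were negative and 3 positive, among them Lsp1 and Mef2c at 0.24 and 1.27, with a median of -0.46. Dntt, the template-free polymerase of lymphoid progenitors, stood at 309, 319 and 311 CPM in untreated wild type and 433, 426 and 426 CPM after 5-FU, and in libraries labelled Trim47-/- at 479, 486 and 483 CPM and then 208, 219 and 214 CPM (interaction -1.63, SE 0.0308, adjusted p = 8.87e-12). Flt3, Cd27 and Notch1 had interactions of -0.66, -0.77 and -0.33. Of 18 B and plasma cell genes, 7 (38.9%) were negative and Spib positive at 1.55 (median -0.31). After 5-FU, 8 of the 18 were under 1 CPM in every wild-type library, and 8 in every library labelled Trim47-/-. Interactions of such genes rest on levels near the floor. Summed CPM of the 18 genes was 1385 to 1391 untreated and 504 to 571 after 5-FU in wild type. In libraries labelled Trim47-/- it was 1166 to 1374 and then 392 to 429.

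**Figure D5:**
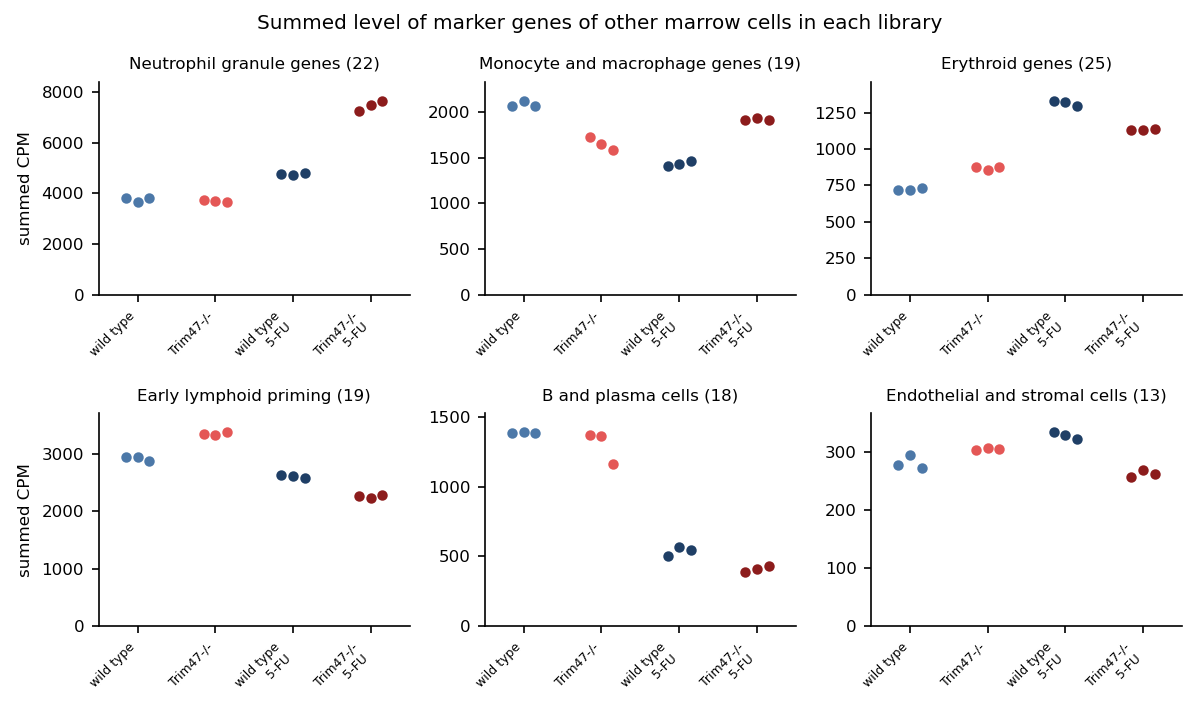
Summed CPM (y axis, from 0) of the tested genes of 6 marker lists in each of the 12 libraries (points), by genotype and treatment (x axis), with the number of genes in parentheses. Neutrophil granule genes reach 7257 to 7662 after 5-FU in libraries labelled Trim47-/-, above the other groups, and monocyte genes are lowest, at 1408 to 1459, in wild type after 5-FU.

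The remaining lineage lists were small or divided. Of 19 megakaryocyte and platelet genes, 8 (42.1%) were positive and 4 negative, among them Gp9, Vwf and Selp at -1.03, -0.41 and -0.33 (median -0.08, against median responses of 0.36 in wild type and 0.86 in libraries labelled Trim47-/-), with Rap1b at 0.80 and the platelet chemokine Ppbp, at 0.735 to 6.87 CPM, at 2.55. Of 16 genes of MHC class II and dendritic cells, H2-Aa, Clec9a, Siglech, Bst2 and Zbtb46 were positive at 0.34, 3.91, 1.42, 1.41 and 1.82, and Ciita, H2-DMa, H2-DMb1, Flt3 and Ccr9 negative at -1.22, -0.34, -0.33, -0.66 and -1.80 (median 0.28). The positive count fell from 5 to 2 without the filter on low counts, and also without 5-FU replicate 3 of the libraries labelled Trim47-/-. Clec9a and Bst2 kept their calls in both cases, and H2-Aa, Siglech and Zbtb46 lost theirs. Of 13 mast cell, basophil and eosinophil genes, Mcpt8 and Hdc were positive at 0.97 and 1.06 and 7 (53.8%) negative, Prg2 and Prss34 among them at -0.36 and -0.52 (median -0.52). Of 13 endothelial and stromal genes, 7 (53.8%) were negative and none positive, a count of 0 in edgeR's test, at an unadjusted p under 0.05 and with DESeq2, with a median of -0.68. Emcn, Kdr, Egfl7 and Pdgfrb stood at -1.85, -2.02, -0.61 and -0.68. Lepr, Col3a1, Adipoq, Kitl and Pdgfra of that list did not pass the filter. Of 13 T and NK cell genes, Trbc1, Tcf7 and Gzmb were positive at 2.71, 0.75 and 1.88 and Lck, Gata3 and Klrb1c negative at -0.79, -1.65 and -1.54, and 9 of 22 listed genes, Cd3d and Cd3e among them, did not pass the filter. The T and NK median of -0.30 rested on single libraries: it was -0.05 without 5-FU replicate 2 and -0.51 without 5-FU replicate 3 of the libraries labelled Trim47-/-, and leaving out 4 other libraries also moved it by over 1.5 times. The median responses of this list, -0.63 in wild type and -0.26 in libraries labelled Trim47-/-, differ with the opposite sign.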

How the data were processed

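Raw gene counts of 12 libraries in 4 groups of 3 were deposited by the authors in 1 table, per the file headers. The FPKM values deposited beside them by the authors were used in no test, and only to work out gene lengths. Per the submitters' processing notes, the build was GRCm38 and the tools included CASAVA 1.8, HISAT2, StringTie and edgeR. No source used here states how reads were counted, the strand setting or the annotation release, so overlapping or antisense genes may not be told apart. Of 28999 gene identifiers, 28923 were found in GENCODE M21.

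Genes were filtered with edgeR's filterByExpr, leaving 16319, scaled by TMM and fitted with the quasi-likelihood model over the 4 groups. The interaction, both 5-FU responses and both genotype differences were contrasts of that fit, two-sided, with Benjamini-Hochberg adjustment over all genes tested and a threshold of 0.05. The SE is the log2 change divided by the square root of F. Genes were sorted into patterns by the calls and signs of the responses. The fit was tested on simulated data, where it missed many small changes and some of at least 2-fold. Far fewer genes were changed there than were called here, so the share missed does not carry over to these data.

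Named genes were Trim47 and Trim65, for each pattern and sign the 3 with the largest interaction (mean of at least 10 CPM, libraries at most 1.5-fold apart in a group), and up to 4 genes per list with the smallest p. Gate markers and the genes named as exceptions lie outside that rule. The contrast, its members and the 40 gene lists were chosen with earlier results of these data known. Some genes, such as Thbs1, Bst2 and Flt3, sat in more than 1 list: the 1064 listed members were 1022 distinct genes. The lists are therefore not separate observations. Promoter windows were shortened to the 250 bases before the start after they were seen. Alternatives were other scalings, no filter, a replicate block, stricter thresholds, DESeq2 and leaving out each library. A few members of the gene lists are counted in their lists and not reported by name here.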

Additional observations from a re-analysis of the deposited data

Results flagged for a closer look

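The interaction tests whether the 5-FU response differs between the genotypes, and it was called in 8957 genes. Every called gene meets that criterion, so only the named genes of opposite response are singled out here, a choice made after the results were seen. Thbs1 (3.27), Acod1 (4.90) and Nlrp3 (4.03) fell in wild type and rose in libraries labelled Trim47-/-. Eps8l1 (-2.55), Zc3h6 (-2.55) and Gprc5b (-2.49) rose in wild type and fell in libraries labelled Trim47-/-. All 6 values are log2 interactions.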

How the results depend on the processing

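Leaving out 1 library at a time gave 8556 to 8684 calls, 4128 to 4224 positive and 4408 to 4512 negative. DESeq2 size factors gave 8991 calls, total counts 9044, no filter 8639, an adjusted p under 0.01 6962 and DESeq2's test 8082, of which 8036 were also called by edgeR. A test against a 1.5-fold change gave 2913, with 1297 positive and 1616 negative. With total counts 38.8% of calls were positive, against 48.2%, and the median interaction was -0.12 against -0.03; 8155 genes were called under both scalings. Genes with neither response called numbered 353 without the filter, against 218. mt-Nd5 reversed to -0.026 with total counts. Named genes were not followed under the stricter thresholds. Genes named only as the exceptions of a list were not followed one by one under any alternative. Of 3213 values of the 189 genes followed under the remaining alternatives, 3188 kept direction and call. The other 25 lay in Arid5b, Usp40, Cd48, Prdx1 and mt-Nd5. Leaving out 1 library ended the call of Arid5b (adjusted p up to 0.066) or Usp40 (up to 0.098) in 5 and 8 cases. Of 1360 list counts, 88 moved by over 1.5 times, 59 of them with the 1.5-fold test. Cholesterol synthesis genes with negative interactions went from 5 to 10 with total counts, and MHC class II and dendritic genes with positive ones from 5 to 2 without Trim47-/- 5-FU replicate 3. Leaving out 1 library moved the median of p53 targets between -0.08 and 0.08 and that of Toll and RIG-I sensing between -0.04 and 0.09, so neither has a stable sign. The cause was not tested.

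With the replicate number as a block, 8827 genes were called. Correlations of deviations from group means ran from -0.212 to 0.207 for libraries with the same number and from -0.226 to 0.238 for others. No pairing by number was seen. With 3 libraries in a group and most genes within counting noise, the check could not exclude one. Depth limits the genes near 1 CPM, such as Gimap3 and Clec9a.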
